A study of Mus musculus with 12 samples.

Results

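Tmem254a, Tmem254b, Tmem254c, Gm9780, Entpd4, Entpd4b and Gm16867 are 7 genes of mouse chromosome 14 that lie in 2 blocks of duplicated sequence. They are 7 of the 30268 genes in the expression table, found by their NCBI Gene IDs, and they were chosen by their FPKM values, because these differed between genotypes on both diets. Their genotype differences are therefore given as a description, without a test, and only their diet differences were tested. The tissue was gonadal white fat of male C57BL/6 mice. The 4 groups were miR-10a knockout (KO) mice on a high-fat diet (HFD), wild-type (WT) mice on HFD, KO mice on a normal chow diet (NCD) and WT mice on NCD, with 3 libraries each. Mice were 8 weeks old when the diet began and stayed on it for 16 weeks. How the knockout was made, whether it covers all tissues and whether the WT mice were littermates are not given in the sources used here, and the level of miR-10a itself was not analysed here.

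Tmem254 genes encode a small membrane protein with predicted transmembrane segments, whose function is little studied. Plac9 genes encode a small secreted protein first described in placenta. Entpd4 encodes a nucleoside diphosphatase of internal membranes, including the Golgi apparatus. There it breaks down the nucleoside diphosphate left after a sugar is transferred from a nucleotide sugar, and the resulting monophosphate is exchanged for a fresh nucleotide sugar from the cytosol. Related ENTPD enzymes at the cell surface, such as ENTPD1 (CD39), break down extracellular ATP and ADP.

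Coordinates are those of GRCm38.p6 (mm10). In the first block, all on the minus strand, Tmem254a (Gene ID 66039) lies at chr14:25923298-25927672, Tmem254c (100039192) at chr14:26063751-26067425 and Tmem254b (100039257) at chr14:26203366-26207025. Gm9780 (100039175) lies between them at chr14:26027702-26042737. RefSeq gives Plac9 as a synonym of Gm9780, and its sequence, described next, is that of Plac9a and Plac9b, not of a Tmem254 gene. The starts of successive Tmem254 copies are 139.753 and 139.6 kb apart, and those of Plac9a, Gm9780 and Plac9b are 139.844 and 139.614 kb apart, so a block holding both genes recurs at the same interval. In the second block, Entpd4 (67464) lies on the plus strand at chr14:69337151-69366742 and Entpd4b (100862375) on the plus strand at chr14:69555401-69584940, 218.25 kb away. Gm16867 (100862085) lies on the minus strand at chr14:69363290-69504080 and is not a copy of Entpd4. Its exons overlap those of Entpd4 on the opposite strand over 2110 bases, which is 27.1% of its exon bases, and its transcripts share sequence with Slc25a37 and Gm27177.

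The annotated transcripts (GENCODE M21) of the copies were the same over most or all of their length. Every 100-base stretch of Entpd4 transcripts occurred in Entpd4b, and every such stretch of Entpd4b in Entpd4. Of Tmem254b and Tmem254c, 0% of the stretches were found in no other gene, while 26.4% of those of Tmem254a were its own. A Tmem254a transcript of 1108 bases was letter for letter a Tmem254b transcript, and all 1066 bases of a Tmem254c transcript lay within it. Of Gm9780, 0.614% of the stretches were its own and 99.4% occurred in Plac9a. Of Gm16867, 8.90% were its own, 86.4% occurred in Gm27177 and 4.75% in Slc25a37. A fragment from a shared stretch cannot be assigned to a copy by its sequence, and how fragments with several possible origins were counted is not given in the sources used here. The value of a single copy is therefore uncertain, and the sum over copies is the firmer quantity.

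The bases upstream of the annotated starts are shown because they let the copies be compared outside their transcripts. They come from RefSeq (GRCm38.p6), which matched 6 of the 7 genes. Each line gives the 250 bases before the first annotated start, 5′ to 3′ on the strand of the gene, with matches to CCAAT and to the GC box core GGGCGG in capitals, read on both strands and merged where they overlap. The lines cover chr14:25927673-25927922 for Tmem254a, chr14:26207026-26207275 for Tmem254b, chr14:26042738-26042987 for Gm9780 and chr14:25902894-25903143 for Plac9a, all on the minus strand, and chr14:69555151-69555400 on the plus strand for Entpd4b.
Tmem254a: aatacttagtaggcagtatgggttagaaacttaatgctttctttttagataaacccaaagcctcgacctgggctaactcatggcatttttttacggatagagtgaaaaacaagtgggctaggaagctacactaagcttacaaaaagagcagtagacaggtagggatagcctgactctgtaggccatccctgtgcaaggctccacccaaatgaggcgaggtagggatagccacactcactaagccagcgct
Tmem254b: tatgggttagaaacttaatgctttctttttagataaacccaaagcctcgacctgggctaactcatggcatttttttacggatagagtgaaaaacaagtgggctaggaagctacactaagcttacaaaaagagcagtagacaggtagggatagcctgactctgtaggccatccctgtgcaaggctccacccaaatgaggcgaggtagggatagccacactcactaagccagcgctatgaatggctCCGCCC
Gm9780: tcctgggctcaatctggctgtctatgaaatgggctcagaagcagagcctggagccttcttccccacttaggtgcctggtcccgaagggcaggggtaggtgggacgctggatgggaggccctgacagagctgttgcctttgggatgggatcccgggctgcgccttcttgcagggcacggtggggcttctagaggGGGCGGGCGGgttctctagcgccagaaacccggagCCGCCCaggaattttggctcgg
Plac9a: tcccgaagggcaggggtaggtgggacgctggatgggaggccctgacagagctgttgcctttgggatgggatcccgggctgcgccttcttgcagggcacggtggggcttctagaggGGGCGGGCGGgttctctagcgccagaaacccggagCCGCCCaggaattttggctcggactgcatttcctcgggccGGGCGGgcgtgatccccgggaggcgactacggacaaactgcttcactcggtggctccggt
Entpd4b: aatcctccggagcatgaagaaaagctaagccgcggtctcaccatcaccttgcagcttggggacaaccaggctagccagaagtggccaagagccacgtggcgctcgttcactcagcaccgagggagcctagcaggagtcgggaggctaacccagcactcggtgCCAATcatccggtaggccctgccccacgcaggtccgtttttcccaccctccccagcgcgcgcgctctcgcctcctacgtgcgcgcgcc

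Tmem254c was identical to Tmem254a over all 300 bases of the RefSeq window (250 before and 50 after the start), and Plac9b was identical to Gm9780 over all 300. Tmem254b shared a run of 284 bases with Tmem254a, because its annotated start lies 16 bases further downstream, and the window of Tmem254b gained 1 GC box core there. Plac9a shared a run of 222 bases with Gm9780 at an offset of 78 bases. Gm9780 had 3 GC box cores and Plac9a 4. Entpd4b had 1 CCAAT. Of the 250-base windows of 32851 promoters, 33.8% held CCAAT and 32.7% held GGGCGG. The TATA box core TATAAA, held by 12.4% of those promoters, was not found in the windows of the 5 genes shown. Nor was the core of the cyclic AMP response element, TGACGT, held by 6.47% of them.

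Expression was deposited as FPKM, a fragment level scaled by transcript length and library size. The files hold no counts, and sequencing depth is unknown. Libraries are named by group and the animal number in the table's header. The summed FPKM of a library ranged from 383633 to 455434. All 12 adipocyte markers were detected, with a summed level of 7290 to 12952 FPKM in KO HFD, 13211 to 17011 in WT HFD, 27864 to 38892 in KO NCD and 29900 to 30216 in WT NCD. The 10 macrophage markers summed to 2234 to 2840 FPKM in KO HFD, 1548 to 2006 in WT HFD, 221 to 292 in KO NCD and 264 to 327 in WT NCD. KO_NCD 2, WT_NCD 2 and WT_NCD 4 stood apart, with 75.9, 52.7 and 38.0 FPKM over 14 markers of ciliated epithelium, against 3.61 to 6.25 in the other 9 libraries. None of the listed markers was at 0 in every library. In bulk tissue, fewer cells of a type and less RNA per cell cannot be told apart.

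The Tmem254 copies were lower in KO than in WT fat on both diets. Tmem254c had 51.6, 63.1 and 27.1 FPKM in KO_HFD 3, 5 and 8, against 125, 124 and 96.1 FPKM in WT_HFD 1, 2 and 4. On chow it had 23.6, 23.6 and 24.2 FPKM in KO_NCD 2, 3 and 4, against 71.8, 67.7 and 71.3 FPKM in WT_NCD 1, 2 and 4. The order of the groups was WT HFD, WT NCD, KO HFD and KO NCD from high to low, and no 2 groups overlapped. KO_HFD 8 lay closest to the KO chow libraries. Tmem254b followed it, with 51.5, 63.0 and 27.3 FPKM in KO HFD, 125, 124 and 96.2 in WT HFD, 23.6, 23.9 and 24.2 in KO NCD and 71.3, 67.7 and 71.2 in WT NCD. Tmem254a was lower throughout, with 34.5, 42.4 and 18.4 FPKM in KO HFD, 83.8, 83.1 and 64.8 in WT HFD, 15.7, 15.8 and 16.2 in KO NCD and 46.8, 45.2 and 47.3 in WT NCD.

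Gm9780, the Plac9 copy, was also lower in KO fat, but its order across diets differed. It had 52.9, 60.5 and 25.0 FPKM in KO_HFD 3, 5 and 8, against 71.8, 77.2 and 67.4 FPKM in WT_HFD 1, 2 and 4. On chow it had 37.1, 33.5 and 30.5 FPKM in KO_NCD 2, 3 and 4, against 95.6, 88.7 and 119 FPKM in WT_NCD 1, 2 and 4. The highest group was WT NCD, followed by WT HFD without overlap, and the KO groups overlapped each other because KO_HFD 8 lay below all 3 KO chow libraries.

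Entpd4 and Entpd4b were higher in KO fat on both diets. Entpd4 had 12.3, 12.6 and 11.5 FPKM in KO_HFD 3, 5 and 8, against 7.20, 7.04 and 6.53 FPKM in WT_HFD 1, 2 and 4. On chow it had 12.3, 11.3 and 11.5 FPKM in KO_NCD 2, 3 and 4, against 6.03, 5.99 and 6.36 FPKM in WT_NCD 1, 2 and 4. The KO groups of the 2 diets overlapped and each lay above both WT groups, of which HFD was the higher without overlap. Entpd4b ranged from 11.8 to 13.0 FPKM in KO HFD, 6.66 to 7.39 in WT HFD, 11.6 to 12.6 in KO NCD and 6.17 to 6.52 in WT NCD. Gm16867, a predicted gene, was low, with 1.97, 1.96 and 1.80 FPKM in KO HFD, 0.122, 0.141 and 0.308 in WT HFD, 1.02, 0.550 and 0.966 in KO NCD and 0.0668, 0.0337 and 0.0824 in WT NCD. Its 4 groups did not overlap, in the order KO HFD, KO NCD, WT HFD and WT NCD.

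**Figure D1:**
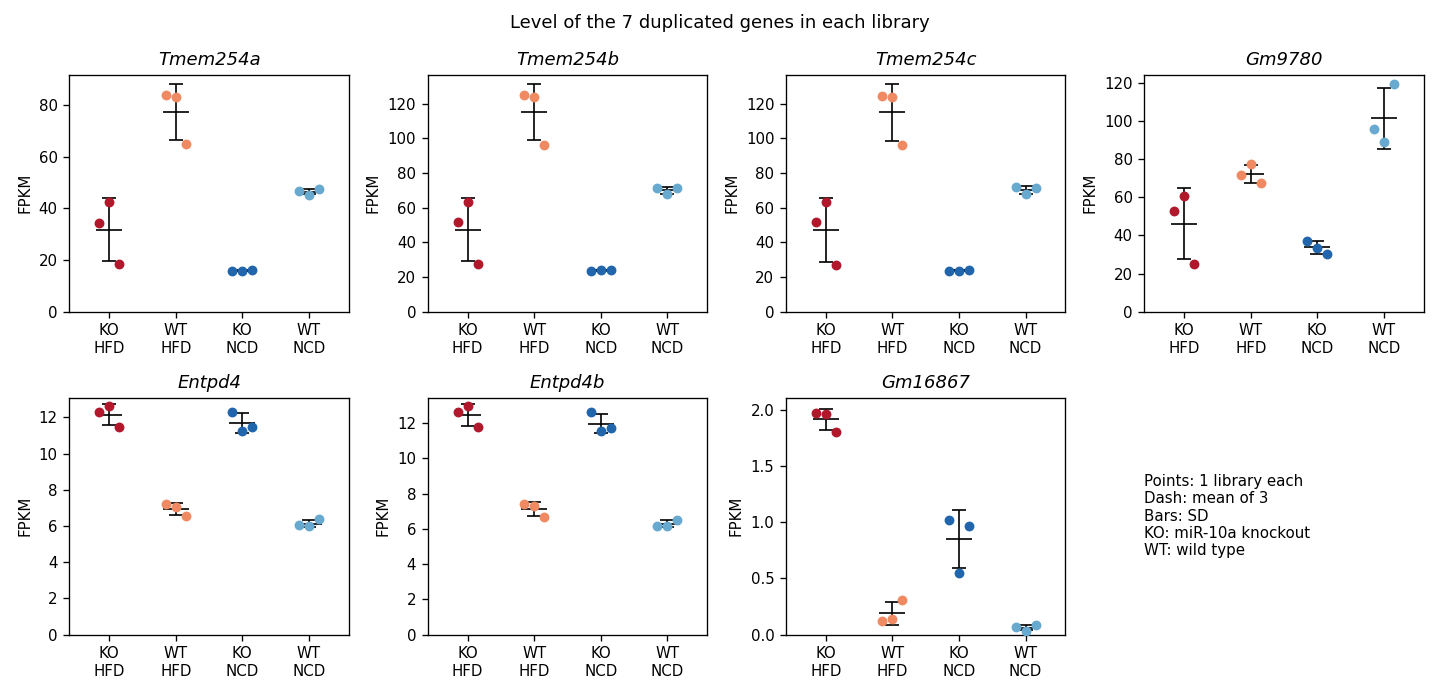
FPKM of each of the 7 genes (vertical axes, from 0) in the 12 libraries, by group (horizontal axes); points are libraries, dashes the mean of 3 and bars the SD. The KO groups lie below the WT group of the same diet for the Tmem254 copies and Gm9780 and above it for Entpd4, Entpd4b and Gm16867, and KO_HFD 8 is the lowest KO HFD point of the first 4 genes.

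In KO relative to WT mice, the mean level was 0.411 times as high on HFD for each Tmem254 copy, and 0.343, 0.341 and 0.339 times as high on chow for Tmem254a, Tmem254b and Tmem254c. On the log2(FPKM + 1) scale, KO minus WT was -1.32, -1.34 and -1.34 for Tmem254a, Tmem254b and Tmem254c on HFD and -1.49, -1.51 and -1.52 on chow. Gm9780 averaged 46.1 ± 18.7 FPKM in KO HFD and 72.1 ± 4.92 FPKM in WT HFD, and 33.7 ± 3.30 FPKM in KO NCD and 101 ± 16.1 FPKM in WT NCD (SD, n = 3 each). Its log2 difference was -0.73 on HFD and -1.55 on chow, and that on HFD was -0.34 without KO_HFD 8. Entpd4 averaged 12.2 ± 0.598 FPKM in KO HFD and 6.93 ± 0.349 FPKM in WT HFD, and 11.7 ± 0.538 FPKM in KO NCD and 6.13 ± 0.203 FPKM in WT NCD (SD, n = 3 each). The log2 differences were 0.73 on HFD and 0.83 on chow for Entpd4, and the same to 2 decimals for Entpd4b. Gm16867 had log2 differences of 1.29 on HFD and 0.79 on chow, which understate its ratio of means, 10.1 on HFD and 13.9 on chow, since 1 FPKM was added before taking logs.

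The KO and WT groups did not overlap for all 7 genes on either diet, which is how they were chosen. Of all 14340 tested genes, 30.7% did not overlap on HFD and 9.45% on chow. On HFD the summed adipocyte markers were lower and the summed macrophage markers higher in KO than in WT libraries, without overlap, and KO_HFD 8 had the lowest adipocyte and the highest macrophage sum of its group. Their part in the HFD differences was not tested. On chow the adipocyte and macrophage sums of the 2 genotypes overlapped. Without KO_HFD 5 the HFD differences of Tmem254a, Tmem254b and Tmem254c were -1.57, -1.58 and -1.58, and without KO_HFD 8 they were -0.99 for each, so their order against the chow differences rests on single libraries.

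**Figure D2:**
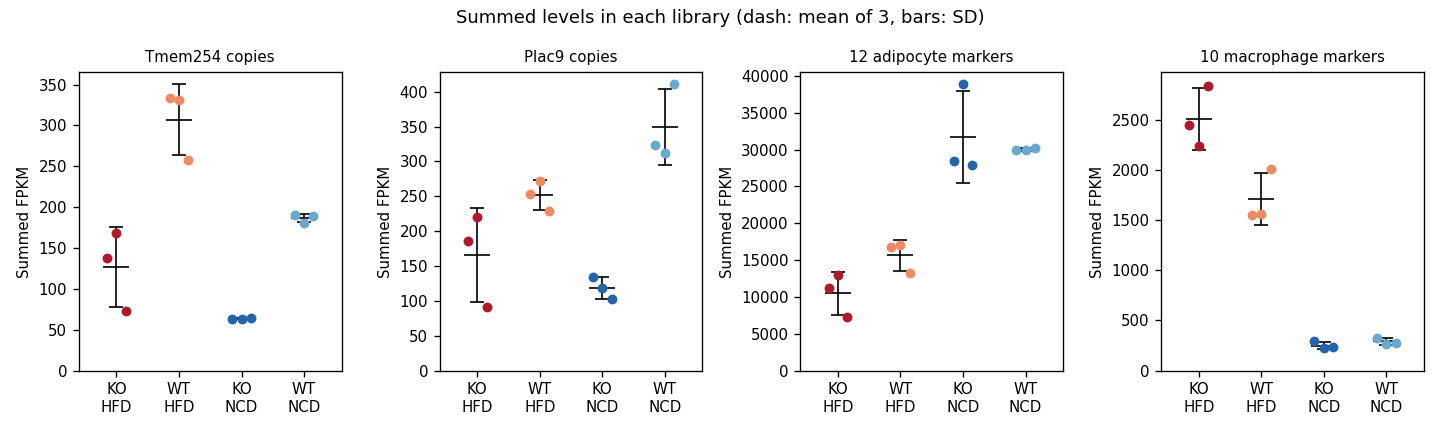
Summed FPKM (vertical axes, from 0) of the 3 Tmem254 copies, the 3 Plac9 copies (Gm9780, Plac9a and Plac9b), 12 adipocyte markers and 10 macrophage markers in the 12 libraries by group; points are libraries, dashes the mean of 3 and bars the SD. KO_HFD 8 has the lowest Tmem254, Plac9 and adipocyte sums of the KO HFD group and the highest macrophage sum, 2840 FPKM.

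The Tmem254 copies were higher on HFD than on chow in both genotypes. In KO fat, Tmem254c averaged 47.3 ± 18.4 FPKM on HFD and 23.8 ± 0.356 FPKM on chow, and in WT fat 115 ± 16.3 FPKM on HFD and 70.2 ± 2.22 FPKM on chow (SD, n = 3 each). In KO mice HFD minus NCD was 0.88 ± 0.23 (SE) for Tmem254a, 0.87 ± 0.23 for Tmem254b and 0.88 ± 0.24 for Tmem254c on the log2(FPKM + 1) scale, with limma adjusted p of 0.00690, 0.00767 and 0.00787. In WT mice it was 0.71 ± 0.23, 0.70 ± 0.23 and 0.69 ± 0.24, with limma adjusted p of 0.0247, 0.0294 and 0.0313. All 3 HFD libraries lay above all 3 chow libraries in each genotype, and 66.7% of all tested genes in KO mice and 64.5% in WT mice likewise did not overlap between diets. The KO calls were kept when any single library was left out, with adjusted p of 2.04e-05 to 0.0329. The WT calls of all 3 copies were lost without WT_NCD 2, WT_NCD 4, WT_HFD 1 or WT_HFD 2, and those of Tmem254b and Tmem254c also without WT_NCD 1, with adjusted p of 0.0551 to 0.0895. All groups share 1 estimate of spread. Without KO_HFD 8 the WT differences were unchanged, but their SE fell to 0.10, 0.11 and 0.11 for Tmem254a, Tmem254b and Tmem254c. The limma adjusted p were then 0.000352, 0.000431 and 0.000456. The WT calls of all 3 copies were also lost without the filter on low values (limma adjusted p of 0.0570 to 0.0696). The log2 difference stayed between 0.63 and 0.83 in every leave-one-out fit. Leaving out the 3 libraries rich in ciliated epithelium transcripts keeps only WT_NCD 1 on WT chow. The WT differences were then 0.70, 0.67 and 0.66 for Tmem254a, Tmem254b and Tmem254c.

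Gm9780 did not pass the threshold for diet in either genotype. HFD minus NCD was 0.35 ± 0.26 (SE) in KO mice, with a limma adjusted p of 0.257, and -0.47 ± 0.26 in WT mice, with an adjusted p of 0.147. Its WT libraries did not overlap between diets, and HFD was the lower. Without KO_HFD 8 both passed the threshold, at 0.74 in KO mice (adjusted p of 0.00103) and -0.47 in WT mice (0.00718), with an SE of 0.12 in place of 0.26 for the WT difference. As a description, its diet difference was 0.83 more positive in KO than in WT mice, against 0.16, 0.18 and 0.19 for Tmem254a, Tmem254b and Tmem254c, whose difference turned to -0.08, -0.07 and -0.06 without KO_HFD 5 and was 0.50, 0.52 and 0.53 without KO_HFD 8. Mesothelial markers, which belong to the lining of the fat pad, also had a more positive diet difference in KO than in WT mice. The median was 1.07 more, with 0 of 10 past the threshold, against 0.09 over all tested genes. It was 0.79 more for the macrophage markers, 0.24 more for the ciliated epithelium markers and -0.67 for the adipocyte markers, with 0 past the threshold in each list. In KO mice alone the mesothelial median was negative, where Gm9780 had 0.35. KO_HFD 8, the lowest of its group for Gm9780, had the highest mesothelial sum of that group. With HFD 1 of 10 mesothelial markers was called lower in KO mice (median log2 difference -0.39) and 10 of 10 in WT mice (median -1.51), against 26.2% and 25.3% of all tested genes. They summed to 63.7 to 91.0 FPKM in KO HFD, 35.7 to 70.6 in WT HFD, 71.7 to 233 in KO NCD and 134 to 188 in WT NCD. Krt8 had 29.9, 18.2 and 38.3 FPKM in WT_NCD 2, WT_NCD 4 and KO_NCD 2, the libraries rich in ciliated epithelium transcripts. In WT_NCD 1, KO_NCD 3 and KO_NCD 4 it had 3.92, 3.69 and 4.78. Krt18 was split likewise, and the other listed mesothelial markers were not. The part of the mesothelial or any other markers in the Gm9780 difference was not tested.

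Entpd4 and Entpd4b changed little with diet. HFD minus NCD was 0.05 ± 0.06 (SE) for each in KO mice, with limma adjusted p of 0.470 for Entpd4 and 0.465 for Entpd4b. In WT mice it was 0.15 ± 0.06 for each, with adjusted p of 0.0562 for Entpd4 and 0.0581 for Entpd4b, and these were 0.0437 and 0.0383 without WT_HFD 4. Gm16867 averaged 1.91 ± 0.0949 FPKM on HFD in KO mice, against 0.846 ± 0.258 FPKM on chow (SD, n = 3 each), a difference of 0.67 on the log2 scale. It passed the filter of 1 FPKM in 3 libraries only through 4 KO libraries, all 3 of HFD among them, so it was tested only because it is high in that group. When every gene was fitted with no filter it passed in KO mice, with a limma adjusted p of 0.000685. In WT mice it averaged 0.190 ± 0.103 FPKM on HFD and 0.0613 ± 0.0248 FPKM on chow (SD, n = 3 each), a log2 difference of 0.16 with an adjusted p of 0.292. When 0.01 FPKM was added in place of 1, the difference was 1.22 in KO mice (adjusted p of 0.0434) and 1.45 in WT mice (0.0252), and the difference between the genotypes, 0.50 before, turned to -0.23.

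Of the 6 genes that reached 1 FPKM in all 12 libraries, the diet test called the 3 Tmem254 copies higher in KO mice, where 34.6% of all tested genes were called higher, and the same 3 in WT mice, where 25.4% were. None of the 6 was called lower. The values of copies are not independent, since they share fragments. With HFD 11 of 12 adipocyte markers fell in KO and 8 in WT mice, and 9 of 10 macrophage markers rose in each, and their part in the diet differences was not tested. Quantile normalization and median centring shifted the median of all genes in the KO diet comparison by -0.11 and -0.15. Under them Tmem254a still rose by 0.73 in KO mice with each scaling, while the diet difference of Entpd4 in KO mice, smaller than those shifts, came to -0.10 and -0.09.

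The copies of a gene moved together to within a few percent. Tmem254b over Tmem254c was 0.993 to 1.01 in the 12 libraries and averaged 1.00 ± 0.00395 (SD over libraries). Tmem254a over Tmem254c was 0.652 to 0.679 and averaged 0.669 ± 0.00647, and Entpd4 over Entpd4b was 0.964 to 0.981 and averaged 0.974 ± 0.00445. These ratios were alike in the genotypes, at 0.671 in KO and 0.667 in WT libraries for Tmem254a over Tmem254c, and 0.974 in each for Entpd4 over Entpd4b. The fixed ratios held while the summed Tmem254 level ranged from 62.9 to 333 FPKM across libraries. Gm9780 over Plac9a varied more, from 0.593 to 0.684, with 0.623 in KO and 0.650 in WT libraries on average. Gm9780 took 27.4% to 29.7% of the summed FPKM of the 3 Plac9 copies, Plac9a 43.2% to 46.3% and Plac9b 26.3% to 27.3%. Because fragments from shared stretches cannot be assigned to a copy, agreement between copies is not separate evidence of a change at each copy.

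**Figure D3:**
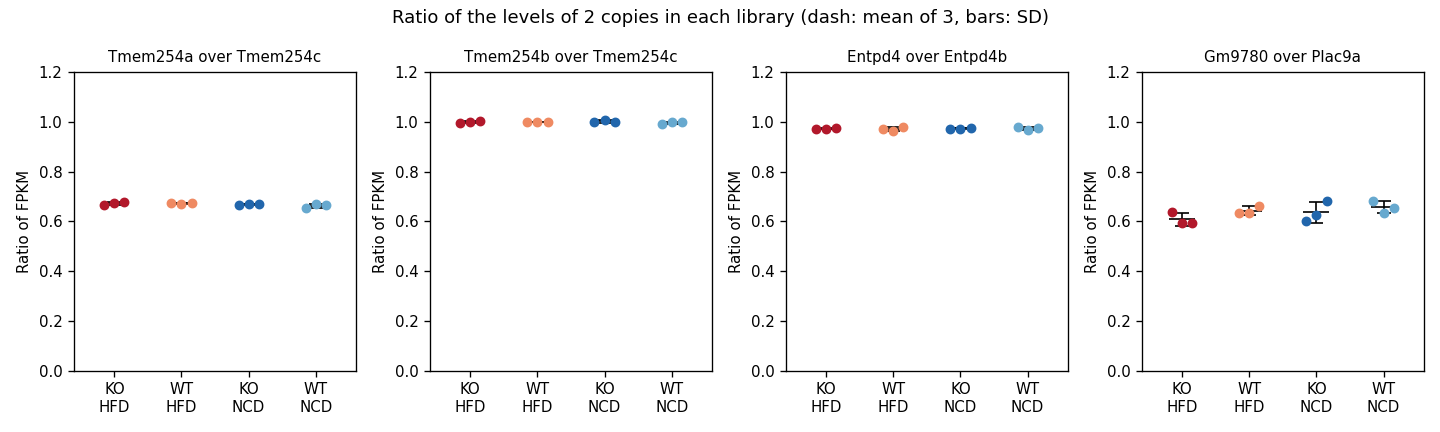
Ratio of the FPKM of 2 copies (vertical axes, from 0) in the 12 libraries by group, for Tmem254a over Tmem254c, Tmem254b over Tmem254c, Entpd4 over Entpd4b and Gm9780 over Plac9a; points are libraries, dashes the mean of 3 and bars the SD. The first 3 ratios lie flat across the groups, while Gm9780 over Plac9a spreads from 0.593 to 0.684.

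Plac9a and Plac9b, in the same block as the Tmem254 copies, showed the pattern of Gm9780. Plac9a had 83.0, 102 and 42.0 FPKM in KO HFD, 113, 122 and 101 in WT HFD, 61.6, 53.4 and 44.7 in KO NCD and 140, 140 and 182 in WT NCD. Plac9b had 49.9, 58.1 and 23.9 FPKM in KO HFD, 68.5, 72.7 and 60.4 in WT HFD, 36.2, 31.2 and 27.4 in KO NCD and 88.7, 83.9 and 110 in WT NCD. On HFD the highest KO library of Plac9a, at 102 FPKM, reached just above its lowest WT library, at 101 FPKM, and on chow KO and WT did not overlap for either gene. Both share transcript sequence with Gm9780, so they add no independent measurement.

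Within 500 kb of the 2 blocks, 62 further genes were listed and 21 were tested, and limma called 0 of the 21 in KO against WT on HFD, where 0.802% of all genes were called, and 0 on chow, where 0.0488% were. At an unadjusted limma p under 0.05 there were 10 on HFD, 5 in each direction, and 2 on chow, which were Plac9a and Plac9b. The share of all tested genes under that p was not worked out, so these counts cannot be read as an excess. Plac9a and Plac9b passed on chow when KO_HFD 8 was left out. Gm21451 and Loxl2, which share transcript sequence, passed on HFD when WT_HFD 4 was left out. The tested genes next to the Tmem254 block were Plac9a and Slmap, a tail-anchored membrane protein gene, whose KO minus WT difference was 0.05 on HFD and -0.05 on chow. Next to the Entpd4 block were Slc25a37 (mitoferrin 1, an iron importer of mitochondria), at 0.14 on HFD and -0.07 on chow, and Loxl2, a collagen cross-linking enzyme, at 0.49 on HFD and -0.02 on chow. Gm2260 and Gm2274, which lie between the Tmem254 copies and share their sequence with Anxa11, had differences of 0.28 and 0.29 on HFD and -0.04 for each on chow. Diet called more of the 21 genes, with 12 higher and 3 lower in KO mice and 9 higher and 1 lower in WT mice, against 34.6%, 26.2%, 25.4% and 25.3% of all tested genes. Their median diet difference was 0.42 in KO and 0.14 in WT mice. The 21 are not separate measurements, since 84.0% of the stretches of Gm21451 occur in Loxl2, and Gm2260 and Gm2274 share theirs with Anxa11. Each of these genes was called higher in KO mice.

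Gm27177 and Gm27222, singled out after their values were seen, were too low to be tested. Gm27177, all of whose 100-base stretches occur in Gm16867, had 0.609, 0.699 and 0.616 FPKM in KO HFD, against 0.00851, 0 and 0.0211 in WT HFD. On chow it had 0.514, 0.354 and 0.492 FPKM in KO, against 0.00927, 0.0121 and 0.0134 in WT. Gm27222, all of whose stretches occur in Gm21451, had 0.993, 0.880 and 0.839 FPKM in KO HFD, against 0, 0 and 0.00539 in WT HFD. On chow it had 0.655, 0.771 and 0.560 FPKM in KO and was listed at 0 in all 3 WT libraries. For both genes every KO library lay above every WT library on both diets, the direction of Entpd4 and Gm16867. They are also the 2 nearby genes that limma called higher in KO on each diet with no filter on low values. Since they were singled out by these values, and Gm27177 shares its sequence with Gm16867, that call is not separate support. Duxbl2 and Duxbl3, near the Tmem254 block and also too low to be tested, were lower in every KO than every WT library on both diets. Duxbl2 had 0.0608 to 0.182 FPKM in KO HFD, 0.218 to 0.271 in WT HFD, 0.0717 to 0.131 in KO NCD and 0.217 to 0.517 in WT NCD. Duxbl1 was lower without overlap on chow only. These too were singled out by their values.

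**Figure D4:**
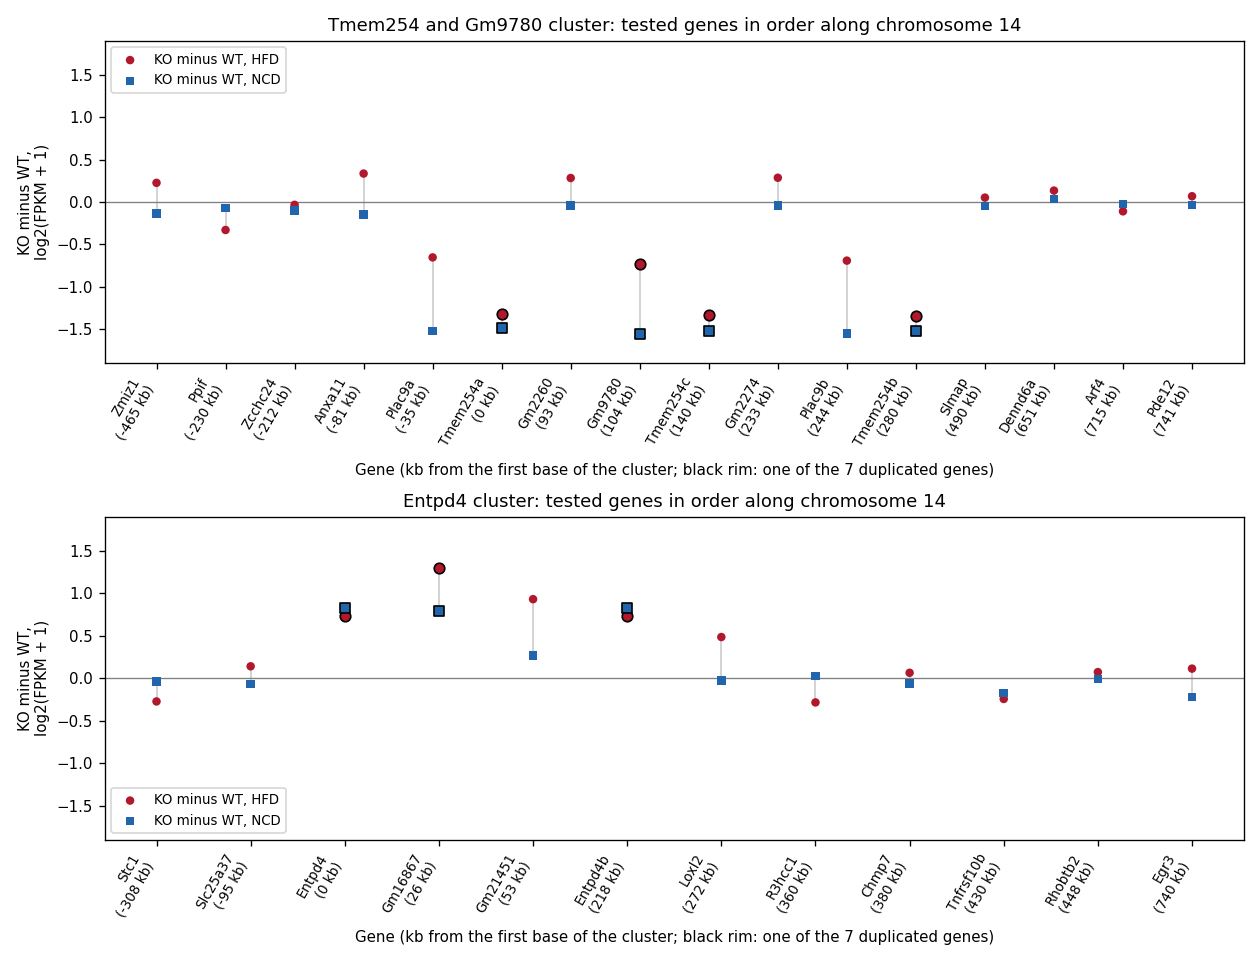
KO minus WT difference of the group means of log2(FPKM + 1) (vertical axes) for each tested gene in and within 500 kb of the Tmem254 block (top) and the Entpd4 block (bottom), in order along chromosome 14, with the distance in kb from the first base of the block; circles are HFD, squares chow and black rims the 7 genes. The 3 Tmem254 copies and the 3 Plac9 copies lie below 0 on both diets, with Gm2260 and Gm2274 between them at -0.04 on chow, and Entpd4, Entpd4b and Gm16867 lie above 0 on both diets, as does Gm21451 with its higher HFD point at 0.93.

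Of the other Entpd family genes 6 were tested. With HFD 3 rose and 1 fell in KO mice and 2 rose in WT mice, against 34.6% higher and 26.2% lower of all tested genes in KO mice and 25.4% and 25.3% in WT mice. In KO against WT, limma called 0 on either diet, against 0.802% of all genes on HFD and 0.0488% on chow. At an unadjusted limma p under 0.05 there were 2 on HFD and 0 on chow, and the share of all genes under that p was not worked out. Entpd1, which breaks down extracellular ATP, averaged 19.7 ± 0.799 FPKM in KO HFD and 5.57 ± 0.765 FPKM in KO NCD, and 16.5 ± 0.810 FPKM in WT HFD and 7.06 ± 1.67 FPKM in WT NCD (SD, n = 3 each). It rose with HFD by 1.66 ± 0.13 (SE) in KO mice and 1.14 ± 0.13 in WT mice, with limma adjusted p of 1.81e-06 and 4.81e-05. Entpd7, an internal membrane enzyme, rose by 1.00 in KO and 0.73 in WT mice (adjusted p of 9.07e-06 and 0.000148). Entpd2, another cell-surface enzyme, rose by 0.45 in KO mice (adjusted p of 0.00305), and its WT difference of 0.23 did not pass (0.0872). Entpd6 fell by 0.90 in KO mice (adjusted p of 0.000295), and its WT difference of -0.31 did not pass (0.0914). Entpd5, a diphosphatase of the endoplasmic reticulum, had differences of -0.12 in KO and 0.00 in WT mice, and Entpd8 of -0.77 and -0.80, none past the threshold. Entpd8 passed the filter only through the libraries rich in ciliated epithelium transcripts. It had 2.13, 1.18 and 1.77 FPKM in WT_NCD 2, WT_NCD 4 and KO_NCD 2, and at most 0.390 FPKM in any other library. Entpd3 stayed at or below 0.0451 FPKM and was not tested.

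Of 9 tested genes of extracellular nucleotide breakdown, Entpd8 among them, 5 rose and 3 fell with HFD in KO mice, and 4 rose and 1 fell in WT mice. Their median difference was 0.45 in KO and 0.23 in WT mice, against 0.04 and -0.03 over all tested genes. Of 16 genes of Golgi nucleotide sugar handling, mostly the SLC35 transporters, 6 rose and 3 fell in KO mice and 4 rose and 2 fell in WT mice, with medians of 0.11 and 0.05. The shares of all tested genes were 34.6% higher and 26.2% lower in KO mice and 25.4% and 25.3% in WT mice, so the counts of the Golgi list lie near them. In KO against WT, limma called 0 of the genes of each list on either diet, against 0.802% of all genes on HFD and 0.0488% on chow. At an unadjusted limma p under 0.05 there were 2 of each list on HFD and 0 on chow, again without a share of all genes to set beside them. Of the macrophage markers, Itgax and Fcgr1 passed on HFD, higher in KO by 0.88 and 0.52 (adjusted p of 0.0374 and 0.0483).

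The genes whose pattern over the 12 libraries was most like each block were found by the root mean square difference of standardised log2(FPKM + 1) from the summed level of the block, over 14333 genes. This is a description, and the points share their libraries. For the Tmem254 and Gm9780 sum the 5 nearest were Msl1 (0.326 SD units), Plac9a (0.441), Plac9b (0.448), Mrps23 (0.469) and Slfn8 (0.481), where the median of all genes was 1.302. Msl1, a subunit of a histone acetyltransferase complex, varied over a narrow range, with means of 21.0 FPKM in KO HFD, 23.4 in WT HFD, 20.2 in KO NCD and 22.6 in WT NCD. Mrps23, of the mitochondrial ribosome, averaged 19.1 FPKM in KO HFD, 24.2 in WT HFD, 17.6 in KO NCD and 23.2 in WT NCD. Slfn8, of the Schlafen family, averaged 0.616 FPKM in KO HFD, 3.82 in WT HFD, 0.0914 in KO NCD and 1.80 in WT NCD.

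For the Entpd4 and Gm16867 sum the nearest were Xaf1 (0.259 SD units), Stxbp4 (0.332), Fndc8 (0.351), AA465934 (0.396) and Gm6685 (0.420), with a median of 1.38 over all genes. Xaf1, known as an antagonist of the apoptosis inhibitor XIAP, averaged 21.0 FPKM in KO HFD, 6.88 in WT HFD, 20.9 in KO NCD and 6.32 in WT NCD. Stxbp4, a syntaxin-binding protein gene, averaged 1.67 FPKM in KO HFD, 1.16 in WT HFD, 1.69 in KO NCD and 1.18 in WT NCD. AA465934 averaged 8.57 FPKM in KO HFD, 0.444 in WT HFD, 14.5 in KO NCD and 1.23 in WT NCD. These 5 genes, and Msl1, Mrps23 and Slfn8, are annotated on chromosome 11, not on chromosome 14. The share of all tested genes on chromosome 11 was not worked out, so this cannot be read as an excess. Since the 7 genes were chosen for a genotype difference, a search for like patterns favours genes that differ by genotype.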

How the data were processed

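Polyadenylated RNA of 12 gonadal fat libraries was extracted with TRIzol and made into TruSeq Stranded mRNA LT libraries, per the labels' protocols. The authors deposited FPKM per gene, per the file headers. Programs listed without roles in the submitters' processing notes are HISAT2 2.1.0, StringTie 1.3.4d, Trimmomatic, bcl2fastq 2.20.0 and DESeq2, with build mm10. The strand setting of the counting is not given in the sources used here, so Gm16867 and Entpd4 cannot be told apart where they overlap. FPKM holds no counts, so no counting error can be given. A column's header ties it to a group and not to a titled sample.

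Of 30268 gene IDs, 30196 matched RefSeq symbols. Values were fitted as log2(FPKM + 1) with limma 3.58.1 in R 4.3.3 (4 group means, all 12 libraries, a mean-variance trend) for the 14340 genes with at least 1 FPKM in at least 3 libraries, with Benjamini-Hochberg adjustment over all of them at 0.05. The fit was also run on simulated data in which only a small part of the genes changed with diet in WT mice. Far more genes were called in the real data, so that run is no check of the calls given here. Transcript sharing was read in 100-base stretches. The genes, the marker and pathway lists and the tests were chosen with earlier results of these data known. Named were the 7 genes, tested neighbours, tested Entpd genes, list genes called between genotypes and the 5 genes most like each block. Other pseudocounts, filters, scalings and left-out libraries were tried.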

Additional observations from a re-analysis of the deposited data

How the results depend on the processing

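With any single library left out, 0 to 5 of the 7 genes passed for diet in WT mice and 4 to 5 in KO mice. With all libraries, 25.4% of all tested genes were called higher and 25.3% lower in WT mice, and 34.6% and 26.2% in KO mice. The KO count includes Gm16867, which was tested only because it is high in KO HFD. Leaving a library out cannot make separate groups overlap, so it could not check the separation of KO and WT for the 7 genes. For diet in WT mice 0 passed with no filter. Without the 3 libraries rich in ciliated epithelium transcripts only WT_NCD 1 is left on WT chow, so no count of calls is given for that fit. Between genotypes 2 nearby genes passed on HFD and 2 on chow with no filter, which were Gm27177 and Gm27222, singled out by their values. With a library left out, 0 to 2 passed on each diet. The KO diet difference turned to -0.0961 for Entpd4 and -0.0943 for Entpd4b with quantile normalization, and to -0.0931 and -0.0915 with median centring, which moves every gene by the same -0.15 in that comparison. The cause of the other moves was not tested. With any library left out the mean ratio was 0.668 to 0.670 for Tmem254a over Tmem254c, 0.999 to 1.00 for Tmem254b over Tmem254c and 0.973 to 0.975 for Entpd4 over Entpd4b. A mean over 12 libraries can move only little when 1 is left out, so this is no check of stability. No paired analysis was possible because the animal numbers in the columns are not the replicate numbers of the labels. Depth is unknown, which limits low genes such as Gm16867 most.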
